A study of Danio rerio with 6 samples.

Results

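The 200 genes described here were expressed in most libraries of whole juvenile zebrafish and were low in EM replicates 2 and 3. Expression is given as CPM, the read count of a gene scaled to the total of its library as counts per 1000000. A gene had to reach 10 CPM in each of EM replicate 1 and control replicates 1 and 3, which 11073 of the 32520 genes in the count table did. For each of these expressed genes, the higher of its values in EM replicates 2 and 3 was divided by the lowest of its values in the other 3 libraries, with 0.5 CPM added to both, and the 200 genes with the smallest ratios were taken. The genes were thus chosen by their CPM values in these 5 libraries, and their differences are a description without a test. Control replicate 2 had no part in the choice.

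The libraries came from AB strain juveniles kept from fertilisation for 32 days in water with exemestane (EM) at 10 µg/L or with the solvent alone. The solvent in both groups was dimethyl sulfoxide (DMSO), given to the controls at 10 µL/L. Each group had 3 libraries, each made from the whole bodies of 25 fish of 1 tank, so that RNA of every tissue was mixed. In such bulk samples, fewer cells of a type and less RNA per cell cannot be told apart.

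EM blocks aromatase, the enzyme that turns androgens into estrogens, and juvenile zebrafish deprived of estrogen tend to develop as males. The chosen genes include several known for large proteins, such as the ubiquitin ligases HUWE1, UBR4 and HERC1, the dynein heavy chain, huntingtin, the ryanodine receptors, the active zone scaffolds bassoon and piccolo, and the spectraplakins. Such proteins work in protein turnover, synapses, the cytoskeleton and muscle contraction. The length of the transcripts was not analysed here. A gene name was found for 192 of the 200 genes. Names in capitals are human-style symbols as the table of names gives them, and 1 such symbol can stand for more than 1 zebrafish gene.

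The library totals ran from 3169530 to 7804654 counts. EM replicates 2 and 3 had 4177681 and 4057579 counts, and the 3 libraries they were set against were the ones with the most counts. Control replicate 2 had the fewest counts and stood apart, with 21182 genes detected against 24418 to 24966 in the others. In it the median expressed gene lay at -0.71 on the log2 scale relative to the mean of control replicates 1 and 3. With median-of-ratios size factors in place of the library total that median was -0.02, a shift that applies to every value of this library. Markers of the tissues of a whole fish were present in every library, while the lysozyme gene lyz had no reads in any. With all libraries thinned at random to the smallest total, 142 of the 200 genes were chosen again.

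The chosen genes as a set lay at about the same level in EM replicate 1 and in control replicates 1 and 3, and at about 1 log2 unit less in EM replicates 2 and 3. They took 2.32% and 2.41% of all counts in control replicates 1 and 3 (95% Wilson intervals 2.31 to 2.33% and 2.40 to 2.42%) and 1.90% in EM replicate 1 (1.89 to 1.91%). In EM replicates 2 and 3 they took 0.905% and 0.873% (0.896 to 0.914% and 0.864 to 0.882%). In control replicate 2, not used in the choice, they took 1.97% (1.96 to 1.99%). There myhc4 alone, at 9217 CPM, gave 29215 of the 62558 counts of the chosen genes. These intervals cover counting error only. The median log2 difference from the mean of control replicates 1 and 3 was -0.08 in EM replicate 1, -0.96 in EM replicate 2 and -0.92 in EM replicate 3, while over all expressed genes it was 0.06, -0.03 and 0.04. The mean of EM replicates 2 and 3 was 51.3% of the mean of the other 3 libraries at the median gene, with quartiles of 45.8% and 56.5% and a range of 11.3% to 63.7%. A difference of at least 2-fold between these means was present in 84 of the 200 genes. Most of the chosen differences were thus near 2-fold, and few genes were close to absent.

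**Figure D1:**
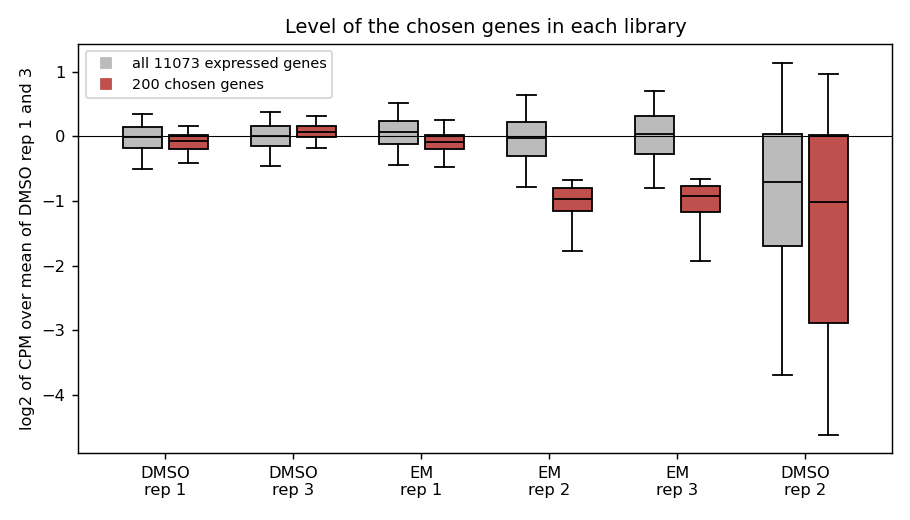
Log2 of CPM over the mean of control (DMSO) replicates 1 and 3 in each library, for all 11073 expressed genes (grey) and the 200 chosen genes (red). Boxes span the quartiles with the median as a line, and whiskers the 5th to 95th percentiles. The medians of the chosen genes, -0.96 and -0.92, are low in EM replicates 2 and 3 by choice, and control replicate 2 has the widest boxes.

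EM replicates 2 and 3 were similar to each other for most of these genes, being within 1.5-fold in 183 of the 200 (91.5%) and in 84.9% of the expressed genes. The other 3 libraries lay within 1.5-fold of each other in 174 of the 200 genes (87%), against 68.5% of the expressed genes. A narrow spread of those 3 libraries is part of what the rule selects. Both EM replicates 2 and 3 were below all 3 libraries in 2015 expressed genes and above all 3 in 1466. The ratio of the gene at rank 200 was 0.685, and 89 expressed genes were higher in EM replicates 2 and 3 by its inverse, 1.46. The boundary was not a gap. The last genes inside, rasal2, F7 and clcn3, had ratios of 0.684, 0.684 and 0.685, and the first outside, stard8, PDHX and hipk3a, had 0.685 each. The chosen genes were of ordinary abundance, with a median of 33.7 CPM over the 3 libraries against 35.1 for the expressed genes. In EM replicates 2 and 3 the median chosen gene had 72.5 and 68 reads.

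Skeletal muscle contributed the most abundant of the chosen genes. The myosin heavy chain gene myhc4, a fast muscle myosin, had 9088, 9217 and 5279.9 CPM in control replicates 1, 2 and 3 and 3869, 1265 and 970.3 CPM in EM replicates 1, 2 and 3. EM replicates 2 and 3 were the lowest libraries and EM replicate 1 lay between them and the controls, so that all 3 EM libraries were below all 3 control libraries. RYR3, a ryanodine receptor that releases calcium from intracellular stores, had 586, 855, 663 and 480.4 CPM in the controls and EM replicate 1, and 294 and 269 CPM in EM replicates 2 and 3. The muscle ryanodine receptor RYR1 (ENSDARG00000023797) had 306, 191, 258 and 213 CPM in the controls and EM replicate 1, and 104 and 133 CPM in EM replicates 2 and 3. MYBPC2, a myosin-binding protein of the fast thick filament, had 143 and 161 CPM in EM replicates 2 and 3, against 275 in EM replicate 1 and 339.7, 271 and 377 in control replicates 1, 2 and 3. In each of these 4 muscle genes control replicate 2 was above both EM replicates 2 and 3.

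Most other muscle genes did not share the pattern. Of 20 expressed myosin heavy chain genes, muscle and non-muscle, 7 had a ratio under 1 and only myhc4 was chosen. The nearest outside were smyhc2 and myha, with ratios of 0.697 and 0.766, and the ratios ranged up to 2.93. The second RYR1 gene (ENSDARG00000011422) had a ratio of 0.764 and was at 43.0% of the mean of the 3 libraries. The fast myosin gene myhz1.3 had 1061, 3886 and 1376 CPM in the controls and 2541, 2976 and 3107 CPM in EM replicates 1, 2 and 3, with its highest EM values in the libraries where myhc4 was lowest. The giant sarcomere genes ttn.1, ttn.2 and NEB lay outside the 200, with ratios of 0.859, 0.822 and 0.902. Of a list of fast skeletal muscle genes, 38 were expressed, 11 had a ratio under 1 (18.2% of all expressed genes did) and 3 were chosen. Over all expressed genes, 200 of 11073 were chosen. The median ratio of that list was 1.15, beside 1.301 over all expressed genes. Its summed level was 91089, 155574 and 81705 CPM in the controls and 75087, 73466 and 67099 CPM in EM replicates 1, 2 and 3. The sum was highest in control replicate 2, and its part in the values of the muscle genes was not tested.

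Genes of bone, tooth and matrix formed a second group, with 7 genes at 14.1% to 47.3% of the level in the 3 libraries. The ameloblastin gene ambn, which encodes a protein of the tooth enamel matrix in mammals, had 34.9, 0.316 and 52.6 CPM in control replicates 1, 2 and 3 and 22, 10.3 and 0 CPM in EM replicates 1, 2 and 3. It had no reads in EM replicate 3, where a count of 3 corresponds to 0.739 CPM. The secretory calcium-binding phosphoprotein gene scpp7, of the family of mineralised tissue proteins, had 451, 25.9, 844 and 355 CPM in the controls and EM replicate 1, and 210.2 and 82.6 CPM in EM replicates 2 and 3. Both genes were thus lower in EM replicate 3 than in EM replicate 2 and were highest in control replicate 3. The enamelin gene enam, at rank 604 with a ratio of 0.795, had 160.3, 26.2 and 421 CPM in the controls and 297, 127 and 102 CPM in EM replicates 1, 2 and 3. The related genes scpp1 and spp1 had ratios of 2.11 and 1.93.

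Among the collagens, COL10A1 (ENSDARG00000101535), known from hypertrophic cartilage and bone-forming cells, had 397, 78.9 and 822 CPM in control replicates 1, 2 and 3 and 467, 206 and 196 CPM in EM replicates 1, 2 and 3. The type I collagen gene col1a1b, for the main fibrous protein of bone and skin, had 3098, 1771, 5728 and 4308 CPM in the controls and EM replicate 1, and 1984 and 2041 CPM in EM replicates 2 and 3. Its partners col1a1a and col1a2 had ratios of 0.728 and 0.730, close to the 0.659 of col1a1b, and only 1 of these 3 genes was chosen. The other copy of COL10A1 had a ratio of 1.24 and was at 61.5% of the mean of the 3 libraries. The basement membrane gene col4a3 had 11.3 and 11.3 CPM in EM replicates 2 and 3, against 28.4 in EM replicate 1 and 24.4, 24 and 18.7 in control replicates 1, 2 and 3. The values of col19a1 and the laminin gene LAMA1 in EM replicates 2 and 3 were 44.0% and 40.4% of the mean of the 3 libraries. Over a list of bone and cartilage genes, 25 were expressed and 5 had a ratio under 1 (18.2% of all expressed genes did). The median ratio of the list was 1.58, beside 1.301 over all expressed genes, so the list as a whole did not share the low ratios. The summed level of that list was 14874, 8238 and 25826 CPM in the controls and 22571, 12631 and 13556 CPM in EM replicates 1, 2 and 3. By CPM it was lowest in control replicate 2 and lower in EM replicates 2 and 3 than in the 3 libraries they were set against. Type I collagen made up much of this sum. The genes col1a1a, col1a1b and col1a2 had 4628, 3098 and 2590 CPM in control replicate 1 and 3357, 1984 and 1776 CPM in EM replicate 2. The order of the sums may thus not hold for the other genes of the list.

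**Figure D2:**
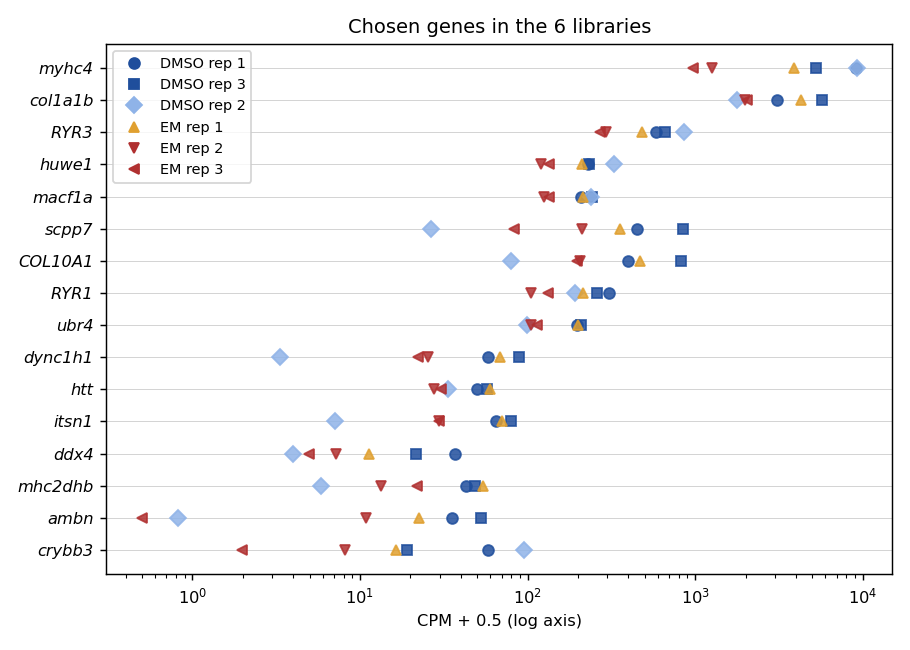
CPM plus 0.5 on a log axis for 16 of the chosen genes in each of the 6 libraries, 1 symbol per library. EM replicates 2 and 3 (red) lie left of control replicates 1 and 3 and EM replicate 1 by choice, and control replicate 2 (light blue) has no fixed place, with 9217 CPM for myhc4 and 0.316 CPM for ambn.

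Protein ubiquitination marks proteins for degradation or signalling, and 9 of the chosen genes encode ligases or conjugating enzymes of this kind. Their level in EM replicates 2 and 3 was 47.3% to 59% of that in the 3 libraries. HUWE1 (huwe1), a ligase acting on many nuclear proteins, had 228, 326, 233 and 212 CPM in the controls and EM replicate 1, and 120.4 and 135 CPM in EM replicates 2 and 3. The ligase gene ubr4 of the N-degron pathway, which reads the first residue of a protein, had 198, 99.1, 208 and 199 CPM in the controls and EM replicate 1, and 105 and 114 CPM in EM replicates 2 and 3. HERC2, a ligase of DNA repair, had 49.8 and 57.4 CPM in EM replicates 2 and 3, against 106 in EM replicate 1 and 109, 69.4 and 124 in control replicates 1, 2 and 3. HUWE1 stood above the other controls in control replicate 2, while ubr4 was there, by CPM, at the level of EM replicates 2 and 3. With size factors ubr4 was above EM replicates 2 and 3 in that library. Its reads were 314, 439 and 461 in these 3 libraries, with size factors of 0.404, 0.901 and 0.893. The inhibitor of apoptosis BIRC6, the neural ligase mycbp2, WWP1, HERC1 and ubr3 were also in the group. Within the UBR family, ubr3 and ubr4 were among the chosen genes, UBR2 and UBR1 had ratios of 0.781 and 0.981, and UBR7 had 1.62. The 4 expressed HERC genes had ratios of 0.541 to 0.995, the 2 lowest being the chosen HERC2 and HERC1.

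Regulators of chromatin and transcription were the largest group after the neural genes, with 25 genes at 40.2% to 62.2%. The histone acetyltransferase gene ep300b had 78.9, 127, 105 and 93.8 CPM in the controls and EM replicate 1, and 52.9 and 50.3 CPM in EM replicates 2 and 3. Its relative CREBBP (ENSDARG00000112452) had 69.3, 66.6, 90.1 and 75.1 CPM in the controls and EM replicate 1, and 45 and 40.2 CPM in EM replicates 2 and 3. ARID1A, a subunit of the SWI/SNF remodelling complex, had 50.7 and 56.2 CPM in EM replicates 2 and 3, against 98.9 in EM replicate 1 and 87.7, 61.5 and 101 in control replicates 1, 2 and 3. The spread of EM replicates 2 and 3 was small beside their distance from the other EM library in all of these. That distance is part of what the rule selects. The group also held the SWI/SNF ATPase SMARCA4, the histone methyltransferases kmt2ca and ASH1L, the DNA methyltransferase gene dnmt3aa and the remodeller EP400.

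The families of these regulators differed in how far the pattern extended. All 7 expressed KMT2 genes had a ratio under 1, from 0.639 to 0.888, and 1 of them was chosen. The share under 1 among all expressed genes was 18.2%. These families were picked for holding chosen genes, whose ratios are low by the rule, so part of each count is set in advance. Both copies of MED13, the large subunit of the Mediator kinase module, were chosen, and med13a had 70.8, 101, 85.5 and 70.5 CPM in the controls and EM replicate 1, and 44.5 and 42.9 CPM in EM replicates 2 and 3. Of the 16 expressed Mediator genes, 3 had a ratio under 1 and the median ratio was 1.24. The small subunits med7 and MED19 both had ratios of 1.76. All 3 ARID1 genes were under 1, whereas the SMARCA genes spread from 0.633 to 1.96.

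**Figure D3:**
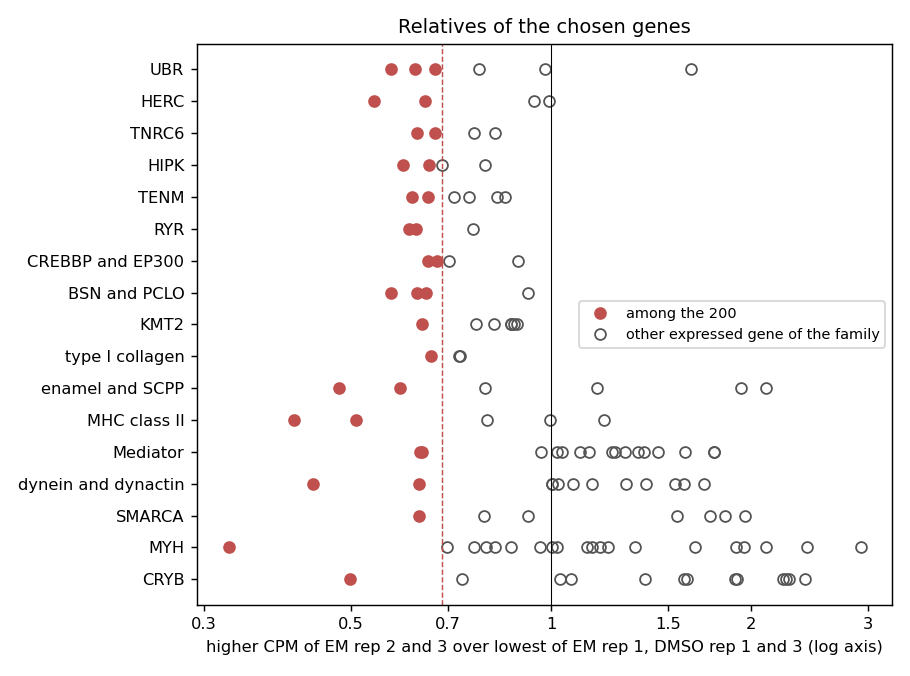
Ratio of the higher CPM of EM replicates 2 and 3 to the lowest of EM replicate 1 and control replicates 1 and 3, on a log axis, for every expressed gene of 17 gene families. Filled red points are among the 200, open points are not, and the dashed line marks the ratio of rank 200, 0.685. KMT2 genes all lie below 1, while Mediator, dynein and dynactin, MYH and CRYB genes lie on both sides. The families were picked after the 200 genes were known.

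Genes of 9 transcription factors had levels of 30.5% to 62.6%. The lymphoid factor gene tcf7 had 19.4, 0 and 34.1 CPM in control replicates 1, 2 and 3 and 16.9, 6.7 and 7.64 CPM in EM replicates 1, 2 and 3, with no reads in control replicate 2. SREBF1, the main activator of fatty acid synthesis genes, had 20.8, 0.947, 21.7 and 16.4 CPM in the controls and EM replicate 1, and 4.55 and 7.89 CPM in EM replicates 2 and 3. It was the only chosen gene of a list on insulin and fasting, and no gene of that list passed the DESeq2 test between the groups. MEF2A, a factor of muscle and neurons, and the zinc finger factors ZEB2 and bcl11ba were also chosen.

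Proteins that bind RNA or act in translation numbered 16, with levels of 24.5% to 63.7%. The scaffold gene TNRC6C, which carries out silencing by microRNAs, had 100.3, 106, 150.5 and 136 CPM in the controls and EM replicate 1, and 63 and 58.9 CPM in EM replicates 2 and 3. The gene gcn1, an activator of the amino acid starvation kinase GCN2, had 68 and 57.2 CPM in EM replicates 2 and 3, against 121 in EM replicate 1 and 121, 90.5 and 159 in control replicates 1, 2 and 3. All 4 expressed TNRC6 genes had ratios under 1, from 0.629 to 0.822, and 2 were low by choice. The share under 1 among all expressed genes was 18.2%. LARP1 and ATXN2, which bind RNA in the cytoplasm, were at 54.2% and 59.7%, and CPSF6, a factor of mRNA cleavage before polyadenylation, was at 56.9%.

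The germ cell helicase vasa, encoded by ddx4, also belongs to the RNA-binding genes. It had 36.2, 3.47 and 21.2 CPM in control replicates 1, 2 and 3 and 10.9, 6.7 and 4.44 CPM in EM replicates 1, 2 and 3. Control replicates 1 and 3 were the highest and EM replicate 1 was intermediate. By CPM, control replicate 2 was lower than every EM library, with 11 reads. With size factors (0.404 for control replicate 2 and 0.893 for EM replicate 3) it was not below EM replicate 3, which had 18 reads. Its DESeq2 log2 fold change was -1.59 with an adjusted p-value of 0.561. From a list of germ cell and testis genes, dazl and tdrd1 were called lower in EM-juveniles by DESeq2 and neither reached the expression limit of the rule. The summed level of this list was 225, 48.9 and 176 CPM in the controls and 136, 132 and 110.4 CPM in EM replicates 1, 2 and 3.

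The nervous system was represented by 35 genes of synapses and neural adhesion at 34% to 61.9%. BSN (ENSDARG00000079161), the active zone scaffold bassoon, had 67.6, 73.5, 59.9 and 61.1 CPM in the controls and EM replicate 1, and 34 and 34.3 CPM in EM replicates 2 and 3. Its partner piccolo, encoded by PCLO, had 76.7, 184, 72 and 78.3 CPM in the controls and EM replicate 1, and 46.4 and 40.7 CPM in EM replicates 2 and 3. Neurobeachin (NBEA), which directs receptors to synapses, had 34.2 and 33.3 CPM in EM replicates 2 and 3, against 57.7 in EM replicate 1 and 59.5, 144 and 56 in control replicates 1, 2 and 3. The chosen genes differed most in control replicate 2, where PCLO and NBEA were more than 2-fold above the other controls and this BSN gene was close to them. The second chosen BSN gene (ENSDARG00000111110) had 1.26 CPM there, from 4 reads. It had 25.1 and 26.1 CPM in control replicates 1 and 3, and 15.6 and 14.8 CPM in EM replicates 2 and 3. By CPM, control replicate 2 was above both EM replicates 2 and 3 in 19 of the 35 neural genes and below both in 16.

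Calcium channel gene cacna1aa had 37.5, 20.5, 35.4 and 35.4 CPM in the controls and EM replicate 1, and 19.1 and 19 CPM in EM replicates 2 and 3. The teneurin TENM2 (ENSDARG00000011171), an adhesion protein of synapses, had 24.3, 47, 26.9 and 29.1 CPM in the controls and EM replicate 1, and 12.7 and 14.8 CPM in EM replicates 2 and 3. All 6 expressed teneurin genes had ratios under 1, from 0.618 to 0.851, and 2 were low by choice. The share under 1 among all expressed genes was 18.2%. The second PCLO gene, pclob, had a ratio of 0.922. A list of general nervous system markers had 27 expressed genes, of which 5 had a ratio under 1, with a median of 1.14. None of the 27 was chosen. As 200 of 11073 expressed genes were chosen, nothing is read from that. The summed level of the list was 3689, 4850.2 and 2997 CPM in the controls and 3258, 3459 and 2917 CPM in EM replicates 1, 2 and 3. The sum in EM replicate 2 lay within the range of control replicates 1 and 3 and EM replicate 1, and that in EM replicate 3 lay below it.

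Cytoskeletal genes and motors numbered 15, at 32.7% to 59.7%. The heavy chain of cytoplasmic dynein, the motor that moves cargo towards microtubule minus ends, is encoded by dync1h1, which had 58, 2.84 and 88.7 CPM in control replicates 1, 2 and 3 and 67.9, 25.1 and 21.7 CPM in EM replicates 1, 2 and 3. The spectraplakin gene macf1a, which links actin to microtubules, had 209, 237, 242 and 213 CPM in the controls and EM replicate 1, and 125 and 134 CPM in EM replicates 2 and 3. DST (dystonin), of the same family, had 159.96, 185, 151 and 131 CPM in the controls and EM replicate 1, and 82.6 and 81.8 CPM in EM replicates 2 and 3. The remaining dynein and dynactin subunits did not share the level of dync1h1: of 12 expressed genes, 2 had a ratio under 1, both of them chosen, and dync1li2 and DCTN5 had 1.59 and 1.70. Among all expressed genes 18.2% had a ratio under 1. The 9 genes of vesicle traffic had levels of 38.8% to 61%. The endocytic scaffold gene itsn1 had 64.3, 6.63 and 79.1 CPM in control replicates 1, 2 and 3 and 70.215, 29.2 and 29.1 CPM in EM replicates 1, 2 and 3. The lysosomal trafficking regulator lyst had 6.22 and 5.91 CPM in EM replicates 2 and 3, against 15.9 in EM replicate 1 and 15.6, 1.26 and 15.4 in control replicates 1, 2 and 3. Huntingtin (htt), outside these groups, had 49.5, 32.8, 57.1 and 59.195 CPM in the controls and EM replicate 1, and 27 and 29.8 CPM in EM replicates 2 and 3.

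The 7 immune genes were at 25.3% to 55.1%, with a median of 35.6%. The major histocompatibility complex class II genes mhc2dga and mhc2dhb present antigen to helper T cells. The first had 18.9, 1.58 and 17.6 CPM in control replicates 1, 2 and 3 and 24.9, 6.94 and 6.9 CPM in EM replicates 1, 2 and 3. The second had 42.7, 5.36, 48.1 and 53.9 CPM in the controls and EM replicate 1, and 12.9 and 21.4 CPM in EM replicates 2 and 3. Both were highest in EM replicate 1 and lowest in control replicate 2. The other class II genes mhc2dgb, mhc2daa and mhc2dab were not chosen, with ratios of 0.800, 0.997 and 1.203. In EM replicates 2 and 3 they were nonetheless at 64.1%, 42.2% and 48.4% of the mean of the 3 libraries. In mhc2dab EM replicate 1 was low too, with 36.4 CPM against 99 and 135 CPM in control replicates 1 and 3. NOS2, the inducible nitric oxide synthase, had 21.3 and 9.12 CPM in EM replicates 2 and 3, against 34.1 in EM replicate 1 and 32.2, 3.79 and 114 in control replicates 1, 2 and 3. The chemokine gene ccl25a had 73.1, 25.6, 108 and 75 CPM in the controls and EM replicate 1, and 49.1 and 19.2 CPM in EM replicates 2 and 3. The summed level of a list of immune cell markers was 802, 109 and 1108 CPM in the controls and 962, 750.4 and 643 CPM in EM replicates 1, 2 and 3. Both EM replicates 2 and 3 were below the other EM library and control replicates 1 and 3 in this sum, and its part in the values of the immune genes was not tested. No gene of the list passed the DESeq2 test.

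Kinases, phosphatases and regulators of GTPases made up 17 genes at 39.2% to 61.8%, with the homeodomain-interacting kinases hipk2 and hipk3b, the Ras exchange factor SOS1 and the Wnt co-receptor lrp6 among them. The gene hipk2 had 25.1, 1.26 and 34.8 CPM in control replicates 1, 2 and 3 and 34.3, 14.8 and 16.3 CPM in EM replicates 1, 2 and 3. The gene hipk3b had 31.2, 2.21, 39.6 and 37.2 CPM in the controls and EM replicate 1, and 17.5 and 18.5 CPM in EM replicates 2 and 3. Both had few reads in control replicate 2, while hipk3a, at rank 203, had 53.6 CPM there. Transport and metabolism had 13 genes at 23.6% to 61.8%. The lowest was CYP27B1, the enzyme that makes active vitamin D, with 28.7, 0 and 27 CPM in control replicates 1, 2 and 3 and 10.5, 5.51 and 4.93 CPM in EM replicates 1, 2 and 3. The sodium-calcium exchanger gene slc8a1b had 16.6, 0.631, 22.7 and 21 CPM in the controls and EM replicate 1, and 11 and 10.6 CPM in EM replicates 2 and 3. The phosphate transporter gene slc20a2 had 144, 153, 146 and 153 CPM in the controls and EM replicate 1, and 90.5 and 88 CPM in EM replicates 2 and 3. SLC10A3 and slc23a2, the latter a vitamin C transporter, were at 52.2% and 53.8% of the mean of the 3 libraries.

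**Figure D4:**
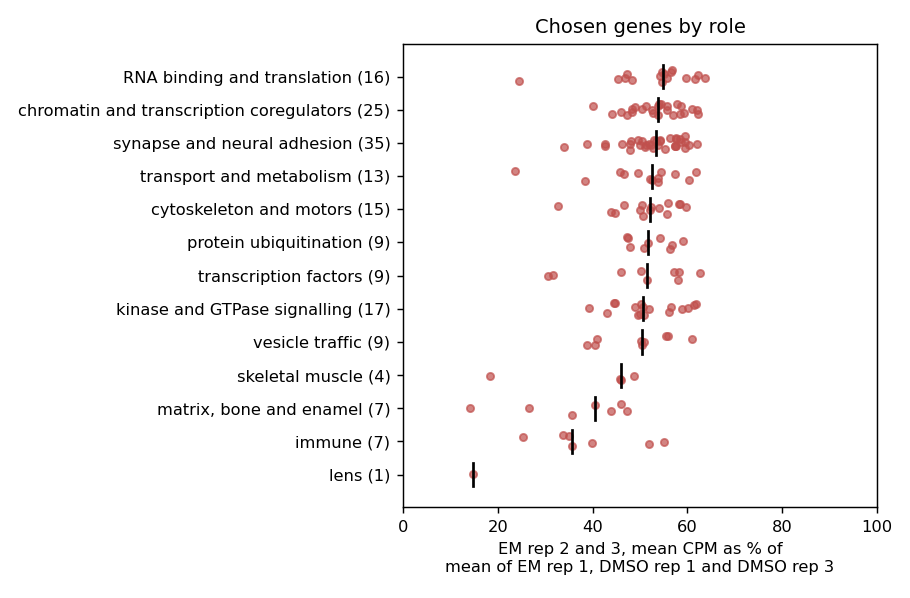
Mean CPM of EM replicates 2 and 3 as a percentage of the mean of EM replicate 1 and control replicates 1 and 3 for the 167 chosen genes with an assigned role. Points are genes, vertical bars are group medians and the number of genes is in parentheses. Medians lie between 50.3% and 54.9% in 9 of the groups and lower in skeletal muscle, matrix, immune and lens. The roles were assigned after the genes were known.

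A few genes were lower than these groups. The gene ENSDARG00000056909, which has no symbol, ranked first with 16.1, 0 and 11.3 CPM in control replicates 1, 2 and 3 and 11.4, 0.718 and 2.22 CPM in EM replicates 1, 2 and 3. The astacin-type protease gene c6ast1 had 53.2, 3.79 and 95.8 CPM in control replicates 1, 2 and 3 and 44.8, 15.6 and 0.986 CPM in EM replicates 1, 2 and 3. The lens crystallin gene crybb3, for a structural protein of the eye lens, had 58, 94.3 and 18.7 CPM in control replicates 1, 2 and 3 and 15.9, 7.66 and 1.48 CPM in EM replicates 1, 2 and 3. Of 13 expressed genes of the beta crystallin family, 2 had a ratio under 1, crybb3 and crybb1l3 (0.734), and the median ratio was 1.602. The related cryba1a, with a ratio of 1.07, also had all EM libraries below all controls. It had 29.4, 73.8 and 27.4 CPM in the controls and 19.6, 21.1 and 7.39 CPM in EM replicates 1, 2 and 3. ENSDARG00000056909, c6ast1 and crybb3 also differed between EM replicates 2 and 3, as did ambn, scpp7, NOS2, ccl25a and si:ch211-128m15.5. That makes 8 genes more than 2-fold apart (4%, against 2.82% of the expressed genes). For these genes the distance between EM replicates 2 and 3 was itself large, and their mean rests on unlike values.

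The other genes with a symbol among the smallest ratios were less abundant or of unlike roles. The sodium leak channel subunit UNC80 had 6.46 and 5.91 CPM in EM replicates 2 and 3, against 13.3 in EM replicate 1 and 17.3, 3.79 and 17.3 in control replicates 1, 2 and 3. DEF6, an exchange factor of T cells, had 12.5, 2.52, 13 and 10.8 CPM in the controls and EM replicate 1, and 5.27 and 3.2 CPM in EM replicates 2 and 3. By CPM both were lowest in control replicate 2, with 12 and 8 reads. With size factors both were lowest in EM replicate 3, with 24 and 13 reads. The transcriptional corepressor RERE, tox2, dip2bb, SUSD2 and zmp:0000000625 were at 47.3%, 46.1%, 42.8%, 43.5% and 36.2% of the mean of the 3 libraries, and si:ch73-127m5.1 was at 44.7%. Among the most abundant genes, fam120c had 226, 198, 271 and 222 CPM in the controls and EM replicate 1, and 149.6 and 146 CPM in EM replicates 2 and 3.

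Control replicate 2 was then examined as the library not used to choose the genes. It was above both EM replicates 2 and 3 in 98 of the 200 genes (49%), against 23.1% of the expressed genes, and below both in 94 (47%), against 68.5%. With size factors in place of the library total the count was 117, against 45.4% of the expressed genes. By CPM, control replicate 2 was at or above the lowest of the 3 libraries the EM pair was set against in 60 genes (30%, against 33.4%). In most of the chosen genes, as in most of the expressed genes, it thus lay below that level. It exceeded the highest of the 3 libraries in 45 genes (22.5%, against 20.4%), and was at least 10-fold below the lowest of them in 44 genes (22%, against 6.74%). In 30 of the 200 genes it had 3 or fewer reads, against 411 of the 11073 expressed genes. The rule picks genes low in EM replicates 2 and 3, so a further library tends to lie above both more often. Nothing is read from that excess. With 1 library no test of these differences is possible.

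**Figure D5:**
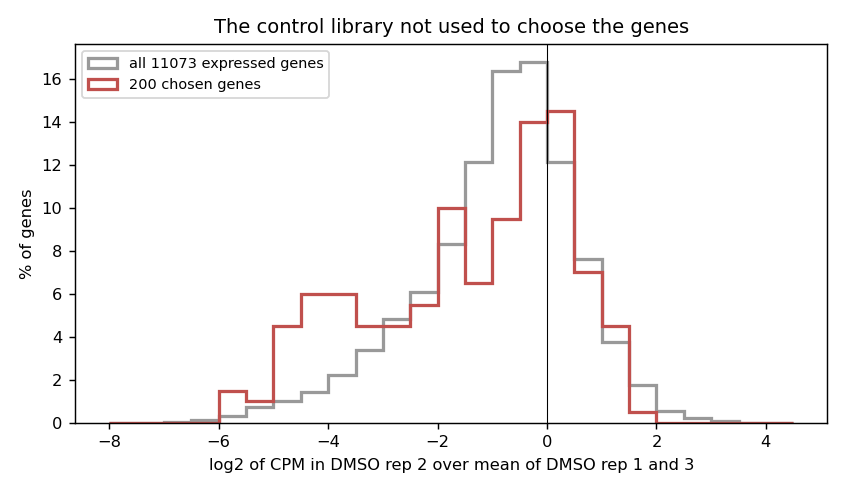
Distribution over genes of the log2 of CPM in control (DMSO) replicate 2 over the mean of control replicates 1 and 3, with 0.5 CPM added, as a percentage of the 200 chosen genes (red) and of all 11073 expressed genes (grey). The chosen genes have a larger share at the far left than the expressed genes, and their median is -1.01 against -0.71.

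By role, control replicate 2 was above both EM replicates 2 and 3 in all 4 muscle genes, 12 of 16 RNA-binding genes, 9 of 15 cytoskeletal genes, 5 of 9 ubiquitination genes, 19 of 35 neural genes and 13 of 25 chromatin genes. It was above both in 4 of 9 vesicle genes, 4 of 9 transcription factors, 7 of 17 signalling genes, 5 of 13 transport genes, 2 of 7 immune genes and 2 of 7 matrix genes. The share over the expressed genes was 23.1%, and a higher share among the chosen genes is partly set by the rule. The roles were assigned after the genes were known, and differences between them were not tested. The genes furthest above the other controls were si:ch211-128m15.5, carmil2, EPS8, NBEA and PCLO, at 3.94, 2.81, 2.69, 2.49 and 2.48 times the mean of control replicates 1 and 3. EPS8, an actin capping protein, had 14.6, 41.6, 16.4 and 14.7 CPM in the controls and EM replicate 1, and 5.74 and 7.64 CPM in EM replicates 2 and 3. No reads were found there for 8 genes, namely tcf7, CYP27B1, ankrd52a, she, si:ch1073-385i9.2, si:ch211-194m7.5, ENSDARG00000056909 and the chromatin organiser SATB1, where a count of 3 corresponds to 0.947 CPM. The summed level of photoreceptor markers was 15339 CPM in control replicate 2 and between 3152.5 and 4522 CPM in the other libraries, and that of the immune markers was 109 CPM against 643 to 1108. The part of such differences in tissue content in the values of this library was not tested.

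EM replicate 1 had no fixed place relative to control replicates 1 and 3. It was the lowest of the 3 libraries in 72 of the 200 genes (36%), against 18.04% of the expressed genes, and the highest in 35 (17.5%), against 38.2%. Control replicate 3 was the highest in 118 genes (59%), against 25.6%. The median ratio of EM replicate 1 to the mean of control replicates 1 and 3 was 0.946 for the chosen genes and 1.05 for the expressed genes. Since the lowest of the 3 libraries entered the rule, these orders are a description.

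Taking the study's groups as labelled, all 3 EM libraries were below all 3 control libraries in 24 of the 200 genes (12%), against 2.53% of the expressed genes. They included myhc4, crybb3, RYR3, huwe1, DST, med13a and SMARCA4. The rule itself places EM replicates 2 and 3 low, so nothing is read from the excess. Without control replicate 2 the count was 72 (36%), against 6.63% of the expressed genes. By the rule, these are the genes with EM replicate 1 below control replicates 1 and 3. The count was 98 without EM replicate 1, by the rule the genes with control replicate 2 above both EM replicates 2 and 3. With size factors it was 60. No share of the expressed genes is given for 98 and 60, so nothing is read from these counts. At an adjusted p-value under 0.05, DESeq2 called 1.08% of the 23966 genes tested, 0.663% as lower and 0.421% as higher in EM-juveniles, and 2 of the 200 (1%) were among the lower genes and 0 among the higher. These were myhc4, at -2.34 ± 0.65 (SE) on the log2 scale (DESeq2, adjusted p-value 0.0313), and crybb3, at -3.26 ± 0.91 (DESeq2, adjusted p-value 0.0339). No gene of the 200 was called without EM replicate 2, without EM replicate 3 or without control replicate 1. In these fits DESeq2 called 127, 126 and 128 genes in all. Without EM replicate 1, 3 of the 200 were called among 542 genes, and without control replicate 3 the same number among 270. The share of the genes tested is not given for these fits.

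The quasi-likelihood test of edgeR called 0% of the 19264 genes it tested, with 759 (3.94%) at an unadjusted p-value under 0.05, of which 58 were among the 200 (29%). The smallest edgeR adjusted p-value over the 200 was 0.916. DESeq2 gave an unadjusted p-value under 0.05 to 63 of the 200 (31.5%), to 5.12% of the expressed genes and to 6.98% of all genes tested. The median DESeq2 log2 fold change was -0.67 over the 200 genes and -0.05 over the expressed genes, and 193 of the 200 values were negative, against 54.5% of those of the expressed genes. These p-values and signs rest on the same libraries that chose the genes, and nothing is read from them. The 7 positive values, up to 0.20, belonged to PKHD1L1, PLXNA1, hipk2, nav1b, mbd6, gatad2b and si:ch211-194m7.5.

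The gene lists were also examined outside the 200 genes. DESeq2 called 30 of the 578 matched list genes, and 18 of them were genes of oocytes and ovary that lay below the expression limit of the rule. Over all genes tested, 0.663% were called lower and 0.421% higher. The edgeR test called no list gene. In the list of fast muscle genes, 3 of 38 were lower in EM-juveniles and none was higher. These were myhc4, myha and the fast troponin I gene tnni2a.3, with log2 fold changes of -2.34, -1.97 and -2.31 and DESeq2 adjusted p-values of 0.0313, 0.0333 and 0.0274. Both myha and tnni2a.3 were highest in control replicate 2, at 17970.5 and 3047 CPM. In control replicates 1 and 3 myha had 10616 and 8684 CPM, and tnni2a.3 had 1470 and 990 CPM. In the epidermis list 3 of 28 were higher and none was lower. Of the lens list 1 of 21 was lower, which was crybb3. The intestine and photoreceptor lists each had 1 lower gene and the red blood cell list 1 higher gene, none of them among the 200. No gene was called in the lists of bone and cartilage, liver, exocrine pancreas, nervous system, immune cells, sterol synthesis, circadian clock, early response and stress, amino acid and ER stress response, cell cycle, estrogen response or insulin and fasting. The lists of sterol synthesis, early response, cell cycle and amino acid stress had 17, 40, 27 and 21 expressed genes and held none of the 200. As 200 of 11073 expressed genes were chosen, few would fall in lists of this size, and nothing is read from their absence. The median ratios of these lists lay between 1.59 and 1.90, beside 1.301 over all expressed genes.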

How the data were processed

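Whole-body mRNA was sequenced in 3 EM and 3 control libraries. The deposited values are raw read counts per gene, not normalised. Per the methods and the submitters' notes, the authors aligned strand-specific reads with HISAT2 2.0.5 to the Ensembl zebrafish genome GRCz11, removed duplicates with SAMtools 1.5 and counted them with HTSeq 0.9.1. Removal of duplicates can lower the counts of abundant genes. The authors' own lists of fold changes and p-values were not used.

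From the counts, CPM was computed with the sum of each library, and the 200 genes were taken by the rule given at the start. The members, gene lists, families and roles were chosen with earlier results of these data known, and families and roles after the members were seen. DESeq2 1.42.0 was run on all genes with group as the only term (Wald test, Benjamini-Hochberg adjusted p-value under 0.05), and edgeR 4.0.16 as the alternative. The study used another version of DESeq2 with the same threshold. Both tools were tested on simulated counts with known changes, where DESeq2 recovered more of the changed genes than edgeR but made false calls well above its nominal rate, so its calls are to be read with care. Each library is 1 tank, and the p-values measure the spread between tanks. Named by rule were the 20 genes with a symbol and the smallest ratios, the 10 most abundant, those in a gene list, those of symbol families with 3 or more members, the 3 on each side of the boundary, and the 5 highest and 5 lowest in control replicate 2. The other named genes were chosen by role or family after their values were seen. The alternatives were other scalings, filters, pseudocounts, a replicate block and each library left out. Promoter motifs and coordinates were not analysed here. Names came from the study's lists for 62 of the 200 genes and otherwise from a table of gene symbols. Some genes that the rule names are not reported here.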

Additional observations from a re-analysis of the deposited data

How the results depend on the processing

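DESeq2 called 260 genes in all, of which 2 were among the 200. The total was 262 with TMM factors and 250 without independent filtering, with 2 of the 200 in both. With at least 10 counts in at least 3 libraries it was 90, with 0 of the 200, and edgeR called 0 genes, 0 of the 200 and 0 list genes, against 30 list genes by DESeq2. With 1 library left out it ranged from 126 to 542, and from 0 to 3 of the 200. The replicate numbers did not pair the samples (correlations of -0.15, 0.21 and -0.20 between deviations of libraries with the same number), and a fit with the replicate block called 174 genes, 2 of them among the 200.

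The rule kept between 134 and 198 of the 200 genes under other scalings, minimums, pseudocounts or thinning. With 1 library left out it kept 66 to 174, the lowest without control replicate 1. It kept 82 without EM replicate 2, 100 without EM replicate 3 and 87 without EM replicate 1. Control replicate 2 was above both EM replicates 2 and 3 in 98 of the 200 genes, against 23.1% of the expressed genes. With size factors the count was 117, against 45.4%, and with TMM factors 116, against 43.6%. By CPM, control replicate 2 was above EM replicate 1 in 53 genes, for which no share is given. All EM libraries were below all controls in 24 genes, in 60 with size factors, in 62 with TMM factors and, with a library left out, in 72 to 98. The counts 24 and 72 stand beside 2.53% and 6.63% of the expressed genes, and no share is given for 60, 62 and 98. Thinning, the rule without a library, the comparison with EM replicate 1 and the scalings and libraries left out for the last count were chosen after seeing the data. The causes of these changes were not tested. The lowest chosen genes had 3 reads in EM replicate 2 and 0 in EM replicate 3, where counting error limits their values.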
